A study of Mus musculus with 14 samples.

Results

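A set of 8 genes whose RNA was far more abundant in full-grown mouse oocytes lacking AGO2 catalytic activity, AGO2 or DICER than in their controls were described across all 14 libraries. They are *Fgf21*, *1700028P14Rik*, *Tstd3*, *Uchl4*, *C130026I21Rik*, *Saxo1*, *Hpse* and *Efhb*, 8 of the 20337 genes with a symbol in the count files. They were selected on these same data, because their counts rose strongly against the controls, so the rise itself is given here as a description, and the calls made on it below are no independent evidence of it. Where a gene had several transcripts, the transcript with the highest mean count stands for it.

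DICER cuts long double-stranded RNA into endogenous small interfering RNAs (endo-siRNAs) and hairpin precursors into microRNAs. Both kinds of small RNA are loaded into AGO proteins, and AGO2 is the AGO protein able to cut an RNA that pairs fully with the small RNA it holds. In the mouse oocyte, microRNAs have little effect on mRNA, whereas endo-siRNAs are plentiful. A full-grown oocyte arrested before its first meiotic division (germinal vesicle-intact, GV) makes almost no new RNA, so its pool of transcripts is largely what was stored during growth.

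The libraries were made from total RNA of 20 oocytes each. *Ago2* fl/fl oocytes (3 libraries) carry floxed *Ago2* alleles without recombination and are labelled wild-type. *Ago2* ADH oocytes (3 libraries) carry 1 floxed allele, which Zp3-Cre removes, and 1 knock-in allele encoding AGO2 that cannot cut RNA. *Ago2* null oocytes (2 libraries) are the *Ago2* knockout from the same crosses. *Dicer* WT and *Dicer* KO oocytes (3 libraries each) are the wild-type and the knockout, in which *Dicer* is deleted in the oocyte. Zp3-Cre acts in growing oocytes and not in the cells around them. Each tube pooled oocytes of several females of 1 genotype, so the spread between libraries is that between pools and not between animals. The females were several weeks old and primed with gonadotropin.

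Libraries held between 29380403 and 58285057 counts on transcripts. *Ago2* was at 24.7 ± 0.771 CPM (counts per 1000000 counts, scaled by TMM; SD, n = 3) in *Ago2* fl/fl oocytes, 13.1 ± 0.726 (n = 3) in *Ago2* ADH oocytes and 6.22 ± 1.35 (n = 2) in *Ago2* null oocytes. *Dicer1* counts were higher in *Dicer* KO oocytes (1804 ± 130 CPM, n = 3) than in *Dicer* WT oocytes (758 ± 18.2 CPM, n = 3), and because they were summed over the whole transcript they do not show whether the deleted stretch was lost. All 12 oocyte markers were detected in every group, with summed levels of 10741 to 16318 CPM, and 12 cumulus and granulosa markers summed to 41.3 to 48.7 CPM in *Ago2* fl/fl, 39.0 to 46.5 in *Ago2* ADH, 32.7 to 33.4 in *Ago2* null, 57.6 to 65.5 in *Dicer* WT and 53.2 to 56.8 in *Dicer* KO libraries. Most of this sum was *Cyp19a1*, the aromatase gene. It was lower in every *Ago2* ADH and *Ago2* null library (20.5 to 24.7 CPM) than in every *Ago2* fl/fl library (30.7 to 36.3 CPM). Without it the other 11 markers summed to more in *Ago2* ADH (14.9 to 23.0 CPM) than in *Ago2* fl/fl libraries (10.5 to 12.4 CPM). In *Ago2* null (9.72 to 12.9 CPM) and *Dicer* KO libraries (6.19 to 8.80, beside 7.58 to 8.74 in *Dicer* WT) this sum overlapped with the controls. Its part in the *Ago2* ADH values was not tested. *Hsd3b1*, *Cyp11a1*, *Inha* and, at no more than 0.128 CPM, *Foxl2* were higher in every *Ago2* ADH library than in every *Ago2* fl/fl library, and *Fshr* was lower. *Hsd3b1* and *Inha* were also higher in every *Ago2* null library than in every *Ago2* fl/fl library. The 4 leukocyte and 3 erythroid markers in the files each summed to less than 1 CPM in every library. Alignments that were not unique were tallied apart from the counts. With up to 100 alignments kept per read, a read may enter this tally more than once. They numbered 0.557 to 0.597 per count in *Ago2* fl/fl, 1.58 to 1.66 in *Ago2* ADH, 1.57 to 1.66 in *Ago2* null, 0.388 to 0.536 in *Dicer* WT and 0.939 to 1.19 in *Dicer* KO libraries. This tally moved with the genotype in the same direction as the 8 genes, and its part in their change was not tested. Levels are shares of a library, so a change in RNA per oocyte and a change in the share of oocytes that hold the RNA cannot be told apart.

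All 8 genes passed the filter on low counts in each comparison. When *Ago2* ADH was set against *Ago2* fl/fl, 8 of 8 were called higher at a false discovery rate (FDR) of 1%, where 21.0% of 13979 genes tested were called higher and 19.9% lower, and 8 of 8 had every mutant library above every control library, where 27.5% of the genes did. The respective shares of all genes were 18.6%, 18.7% and 31.4% of 14302 for *Ago2* null against *Ago2* fl/fl, and 16.9%, 17.6% and 27.1% of 13799 for *Dicer* KO against *Dicer* WT, again with 8 of 8 of the selected genes higher and without overlap. The selection fixed these counts. The median log2 fold change of the 8 genes was 5.39 for *Ago2* ADH, 5.31 for *Ago2* null and 5.45 for *Dicer* KO, beside medians of 0.01, 0.01 and 0.00 over all genes tested. Both *Ago2* mutants were compared with the same 3 *Ago2* fl/fl libraries, so these values share their controls.

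**Figure D1:**
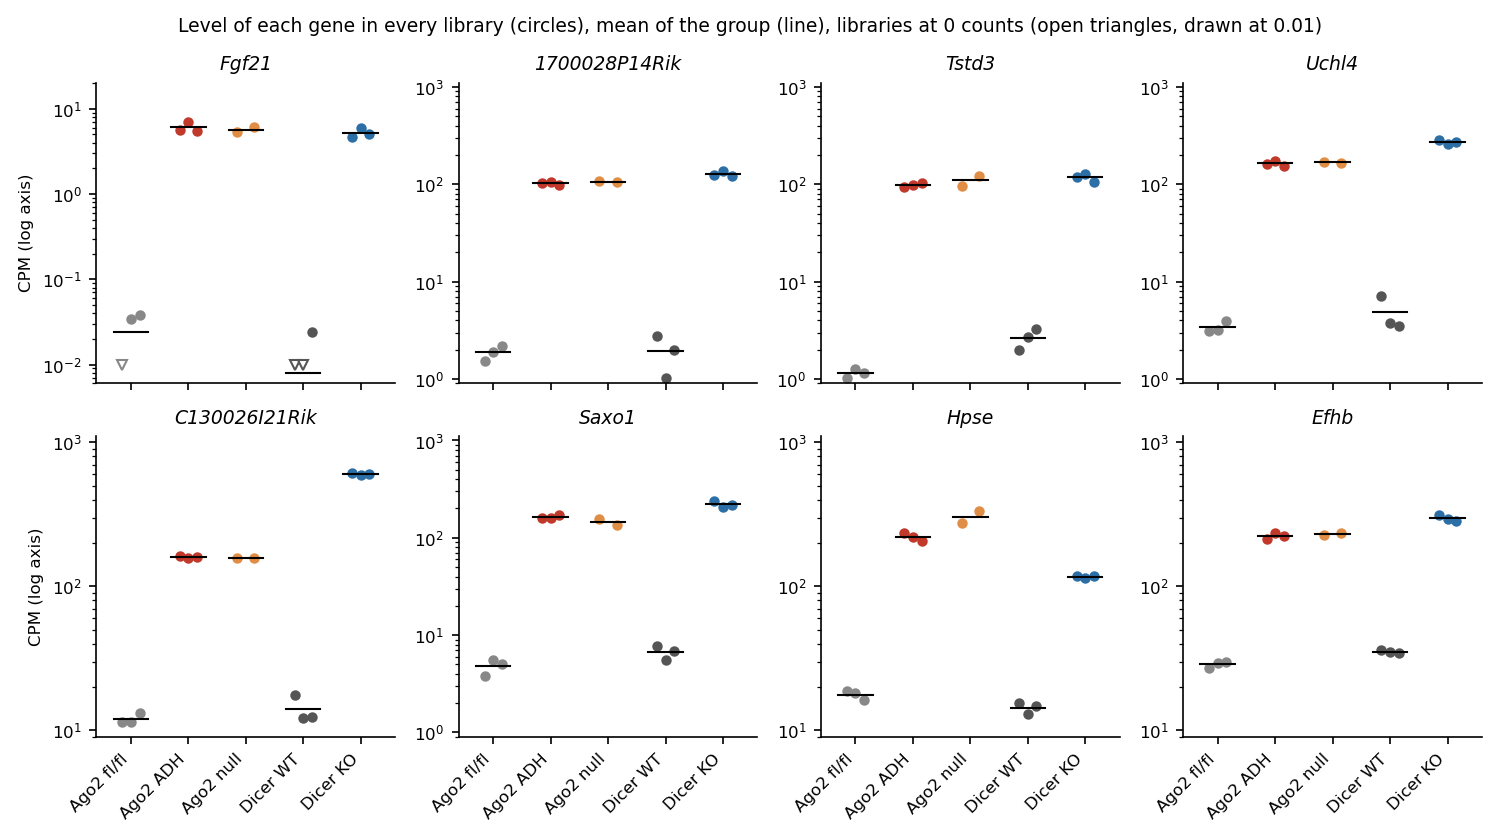
Level of each of the 8 genes in every library, in CPM on a log axis, with the mean of each group as a line; open triangles are libraries with 0 counts, drawn at 0.01. For each gene all 8 mutant libraries sit above all 6 control libraries, and *Hpse* is the only gene for which all 3 *Dicer* KO libraries sit below all 5 *Ago2* mutant libraries.

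*Fgf21* (NM_020013, chr7:45613890-45615490 on GRCm38, minus strand, 3 exons) encodes a hormone of the fibroblast growth factor family that acts with the coreceptor beta-Klotho and that many cells induce under nutrient or organelle stress. It was nearly absent from control oocytes. The 3 *Ago2* fl/fl libraries had 0, 2 and 2 counts, the 3 *Ago2* ADH libraries 310, 376 and 236, and the 2 *Ago2* null libraries 296 and 319. The *Dicer* WT libraries had 0, 0 and 1 counts and the *Dicer* KO libraries 144, 166 and 178. In CPM, *Ago2* ADH oocytes had 6.02 ± 0.772 (n = 3), *Ago2* null oocytes 5.67 ± 0.530 (n = 2) and *Dicer* KO oocytes 5.19 ± 0.625 (n = 3), and the ranges of these mutant groups overlapped. The detection floor of 3 counts was 0.0515 to 0.102 CPM in these libraries, above every control value. With so few control counts the size of the change is loosely bounded. The ratio of pooled counts, scaled for library size, was 256 in *Ago2* ADH oocytes with a 95% exact interval of 99.7 to 942, 239 (93.0 to 882) in *Ago2* null oocytes and 624 (111 to 24688) in *Dicer* KO oocytes, and these intervals cover counting error only. The fitted log2 fold change was 7.90 for *Ago2* ADH, between 7.33 and 8.32 when 1 library was left out, and 7.81 for *Ago2* null, between 7.25 and 8.24. It was 8.79 in *Dicer* KO oocytes and became 10.49 without *Dicer* WT replicate 3, the library with the 1 control count. The lowest *Ago2* values came without *Ago2* fl/fl replicate 1, which had 0 counts.

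The 250 bases before the start of *Fgf21* are shown because they hold the most of the searched motifs among the 6 genes with a promoter in the RefSeq table for GRCm38.p6, with capitals marking the motifs.
Fgf21 promoter, chr7:45615491-45615740, minus strand, 5′ to 3′: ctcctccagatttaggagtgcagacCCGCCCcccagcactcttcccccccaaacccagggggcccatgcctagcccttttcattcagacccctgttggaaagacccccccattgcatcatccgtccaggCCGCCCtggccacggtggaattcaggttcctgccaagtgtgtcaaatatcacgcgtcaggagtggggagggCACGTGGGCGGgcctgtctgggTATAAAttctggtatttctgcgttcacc
The capitals mark a TATA box (TATAAA) starting 28 bases before the start, an E-box (CACGTG) at 50 bases and GC boxes (GGGCGG, or its reverse complement) at 225, 121 and 45 bases, the last overlapping the E-box by 1 base. Among 32851 mouse promoters of the same length, read on both strands, 12.4% held the TATA box letters, 6.02% the E-box letters and 32.7% the GC box letters.

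*Uchl4* (NM_033607, chr9:64235201-64236362, plus strand, 1 exon) encodes a ubiquitin C-terminal hydrolase, an enzyme that removes ubiquitin from small adducts, and is a copy of *Uchl3* without introns. In CPM, the *Ago2* fl/fl libraries had 3.13, 3.18 and 3.96, the *Ago2* ADH libraries 161, 175 and 156, and the *Ago2* null libraries 170.35 and 166. The *Dicer* WT libraries had 7.19, 3.78 and 3.50 and the *Dicer* KO libraries 286, 262 and 271. Every *Dicer* KO library was above every *Ago2* mutant library, and the *Ago2* mutant groups overlapped. The fold change was 49.7 in *Ago2* ADH, 50.6 in *Ago2* null and 57.1 in *Dicer* KO oocytes (log2 fold change 5.63 ± 0.09, 5.66 ± 0.09 and 5.84 ± 0.16, SE).

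The coding sequences of *Uchl4* and *Uchl3* were identical at 672 of 690 aligned bases (97.4%), and of the 1113 windows of 50 bases in the *Uchl4* transcript, 292 (26.2%) occurred letter for letter in *Uchl3* and in no other gene. A stretch of 90 coding bases is shown for both genes because reads from it tell them apart at the 3 capital letters only (GENCODE M21 transcripts).
Uchl4, chr9:64235532-64235621, plus strand, coding bases 294 to 383: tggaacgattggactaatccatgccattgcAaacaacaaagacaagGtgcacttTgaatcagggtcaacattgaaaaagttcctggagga
Uchl3, coding bases 285 to 374: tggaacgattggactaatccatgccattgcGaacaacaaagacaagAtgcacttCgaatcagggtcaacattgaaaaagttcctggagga
A short read that misses the capitals matches both genes and leaves the counts, so the *Uchl4* values come from the rest of the transcript and from reads over such differences. The parent gene moved far less. *Uchl3* was at 57.3 to 69.0 CPM in *Ago2* fl/fl, 46.1 to 52.4 in *Ago2* ADH, 53.2 to 59.0 in *Ago2* null, 51.6 to 57.9 in *Dicer* WT and 67.7 to 75.9 in *Dicer* KO libraries. It fell in *Ago2* ADH oocytes (log2 fold change -0.28 ± 0.07, edgeR adjusted p = 0.00427), was not called in *Ago2* null oocytes (-0.11 ± 0.08, adjusted p = 0.268) and rose in *Dicer* KO oocytes (0.41 ± 0.08, adjusted p = 0.000234).

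The 250 bases before the start of *Uchl4* are shown as the other extreme, since they hold no CG dinucleotide, beside a median of 6 in all 32851 promoters.
Uchl4 promoter, chr9:64234951-64235200, plus strand, 5′ to 3′: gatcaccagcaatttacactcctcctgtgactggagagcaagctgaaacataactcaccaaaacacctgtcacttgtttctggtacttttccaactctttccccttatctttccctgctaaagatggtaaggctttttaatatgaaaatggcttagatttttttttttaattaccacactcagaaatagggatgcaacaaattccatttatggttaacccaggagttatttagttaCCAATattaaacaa
The capitals mark a CCAAT box (CCAAT) 14 bases before the start, letters that 33.9% of promoters hold. No TATA box, GC box or E-box letters were found in this window.

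*Tstd3* (NM_029840, chr4:21757382-21767211, minus strand, 4 exons) encodes a protein with a rhodanese domain, the fold of enzymes that move sulfur atoms. Measured in CPM, the *Ago2* fl/fl libraries had 1.02, 1.27 and 1.15, the *Ago2* ADH libraries 93.8, 97.7 and 104, and the *Ago2* null libraries 97.2 and 122. *Dicer* WT libraries had 1.99, 2.71 and 3.27 and the *Dicer* KO libraries 119, 128 and 106. The *Ago2* null range overlapped those of the other mutants, which did not overlap each other, and every *Dicer* WT library was above every *Ago2* fl/fl library. The fold change was 88.6 in *Ago2* ADH, 98.0 in *Ago2* null and 44.2 in *Dicer* KO oocytes (log2 6.47 ± 0.10, 6.62 ± 0.12 and 5.47 ± 0.13, SE). Reads were counted without regard to strand, and the exons of *Tstd3* overlap exons of *Ccnc* on the plus strand by 171 and 105 bases and an exon of *Usp45* on the plus strand by 57 bases. Of its 50-base windows, 15.9% occur in other genes, most often in *Ccnc* (182 of 1539 windows). The shared windows are spread over 522 other genes, the next being *Aspscr1* and *Gm9964* with 41 windows each. Their part in the *Tstd3* counts was not tested.

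*1700028P14Rik* (NM_026188, chr19:23558760-23652812, minus strand, 6 exons) is a protein-coding gene known by its cDNA clone. As CPM, the *Ago2* fl/fl libraries had 1.52, 1.90 and 2.20, the *Ago2* ADH libraries 103, 106 and 98.4, and the *Ago2* null libraries 108 and 105. In the *Dicer* series, the WT libraries had 2.77, 1.02 and 2.00 and the *Dicer* KO libraries 125, 136 and 123. The control groups overlapped each other, the *Ago2* mutant groups overlapped, and the *Dicer* KO libraries were above both. Its mean rise was a fold change of 56.8 in *Ago2* ADH, 58.7 in *Ago2* null and 66.5 in *Dicer* KO oocytes (log2 5.83 ± 0.10, 5.88 ± 0.11 and 6.06 ± 0.17, SE). None of its 826 windows of 50 bases occurs in another gene.

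*Saxo1* (NM_001081096, chr4:86444425-86558303, minus strand, 4 exons) encodes a protein that stabilizes the microtubules of cilia and flagella. By library, in CPM, the *Ago2* fl/fl samples had 3.77, 5.55 and 5.03, the *Ago2* ADH libraries 159.9, 161 and 173, and the *Ago2* null libraries 155 and 135. For *Dicer*, the WT libraries had 7.71, 5.53 and 6.94 and the *Dicer* KO libraries 236, 208 and 217. The *Dicer* KO libraries were the highest, and each *Ago2* ADH library was above each *Ago2* null library. The fitted fold change was 35.5 in *Ago2* ADH, 31.1 in *Ago2* null and 32.9 in *Dicer* KO oocytes (log2 5.15 ± 0.10, 4.96 ± 0.12 and 5.04 ± 0.10, SE).

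*Efhb* (NM_172497, chr17:53398044-53463334, minus strand, 13 exons) encodes a protein with calcium-binding EF-hand domains that is found in flagella. Per kilobase of transcript it had the highest control level of the 8 genes, at 10.8 CPM per kilobase in *Ago2* fl/fl oocytes. On the CPM scale, *Ago2* fl/fl libraries had 27.3, 29.4 and 29.9, the *Ago2* ADH libraries 215, 233 and 225, and the *Ago2* null libraries 226 and 235. The *Dicer* WT libraries had 36.4, 35.1 and 34.2 and the *Dicer* KO libraries 315, 295 and 286. The control of the *Dicer* series lay above that of the *Ago2* series, as did the mutant. The fold change was 8.04 in *Ago2* ADH, 8.20 in *Ago2* null and 8.52 in *Dicer* KO oocytes (log2 3.01 ± 0.06, 3.04 ± 0.07 and 3.09 ± 0.07, SE). These log2 fold changes, each against its own control, lay within 0.1 of each other.

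*C130026I21Rik* (NM_175219, chr1:85241286-85282883, minus strand, 8 exons) belongs to a cluster of genes on chromosome 1 that encode relatives of the nuclear body proteins SP100, SP110 and SP140. By CPM, the *Ago2* fl/fl libraries had 11.3, 11.4 and 13.2, the *Ago2* ADH libraries 162, 158 and 160.25, and the *Ago2* null libraries 157 and 157. In the *Dicer* series the WT samples had 17.7, 12.1 and 12.3 and the *Dicer* KO libraries 610.0, 591 and 605. The *Dicer* KO libraries stood far above the *Ago2* mutants, while the controls of the series overlapped. As a fold, the change was 13.8 in *Ago2* ADH, 13.5 in *Ago2* null and 43.1 in *Dicer* KO oocytes (log2 3.79 ± 0.07, 3.75 ± 0.08 and 5.43 ± 0.11, SE), and the difference between the series was not tested. A second transcript of the gene, NM_001037909, had 83.1% to 90.7% of the count of the first in each library. Of the 1899 windows of 50 bases, 817 (43.0%) occur in other genes, 381 of them in *Sp140* and 320 in *A530032D15Rik*. Reads that match several places leave the counts. An antisense transcript, *Gm16028*, overlaps an exon by 286 bases and strand was ignored, so the counts of these genes may still not be fully separate.

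*Hpse* (NM_152803, chr5:100679484-100719716, minus strand, 12 exons) encodes heparanase, the enzyme that cuts heparan sulfate chains of the cell surface and matrix. Given in CPM, the *Ago2* fl/fl libraries had 18.6, 18.1 and 16.1, the *Ago2* ADH libraries 234, 221 and 208, and the *Ago2* null libraries 276 and 332. *Dicer* WT libraries had 15.4, 12.9 and 14.7 and the *Dicer* KO libraries 118, 114 and 119. The 3 mutant groups did not overlap, with *Ago2* null highest, *Ago2* ADH next and *Dicer* KO lowest, an order no other member showed. The fold change was 12.96 in *Ago2* ADH, 17.7 in *Ago2* null and 8.19 in *Dicer* KO oocytes (log2 3.70 ± 0.07, 4.15 ± 0.08 and 3.03 ± 0.08, SE). The 250 bases before its start are shown because they hold the most CG dinucleotides of the 6 promoters, 16, more than 74.6% of all promoters.
Hpse promoter, chr5:100719717-100719966, minus strand, 5′ to 3′: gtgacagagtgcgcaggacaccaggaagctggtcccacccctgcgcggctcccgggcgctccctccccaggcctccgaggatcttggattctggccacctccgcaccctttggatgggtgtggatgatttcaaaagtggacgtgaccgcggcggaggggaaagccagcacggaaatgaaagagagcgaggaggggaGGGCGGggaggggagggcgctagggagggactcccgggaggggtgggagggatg
The capitals mark a GC box 54 bases before the start. GC box letters were found in 4 of the 6 promoters (*Fgf21*, *Hpse*, *C130026I21Rik* and *1700028P14Rik*), and none of the 6 held the cAMP response element (TGACGTCA), the AP-1 site (TGANTCA) or the NOBOX element (TAATTG), which 1.55%, 6.75% and 7.17% of all promoters hold. The TATA box and the E-box were found in *Fgf21* alone and the CCAAT box in *Uchl4* alone among the 6, and *Saxo1* held none of the 7 motifs. Motifs other than these 7 were not searched, so letters left in lower case may hold others.

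The contrast of *Ago2* ADH with *Ago2* null oocytes was not used in selecting the genes and compares loss of AGO2 cutting with loss of the protein. *Hpse* was the only 1 of the 8 genes called in it, where 0.118% of 14364 genes were called in either direction. *Hpse* was lower in *Ago2* ADH (221 ± 13.1 CPM, n = 3) than in *Ago2* null oocytes (304 ± 39.4 CPM, n = 2), with a log2 fold change of -0.47 ± 0.08 (SE) and an edgeR adjusted p of 0.00775, and it was lower in 3 of 3 *Ago2* ADH libraries. The call was lost without *Ago2* ADH replicate 1 (adjusted p = 0.0322), replicate 2 (0.0275) or replicate 3 (0.0427) and without *Ago2* null replicate 2 (0.324), when the log2 fold change was -0.33. For *Saxo1* the log2 fold change was 0.17, with a 95% interval (1.96 SE on each side) of 0.03 to 0.31 and an adjusted p of 0.428. For *Tstd3* it was -0.17 (-0.33 to 0.00, adjusted p = 0.545). For *Fgf21* it was 0.08 (-0.25 to 0.40), the widest interval of the 8. The intervals of the other 4, *1700028P14Rik*, *Uchl4*, *C130026I21Rik* and *Efhb*, lay between -0.20 and 0.14. The median over the 8 genes was -0.05, beside -0.01 over all genes tested.

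**Figure D2:**
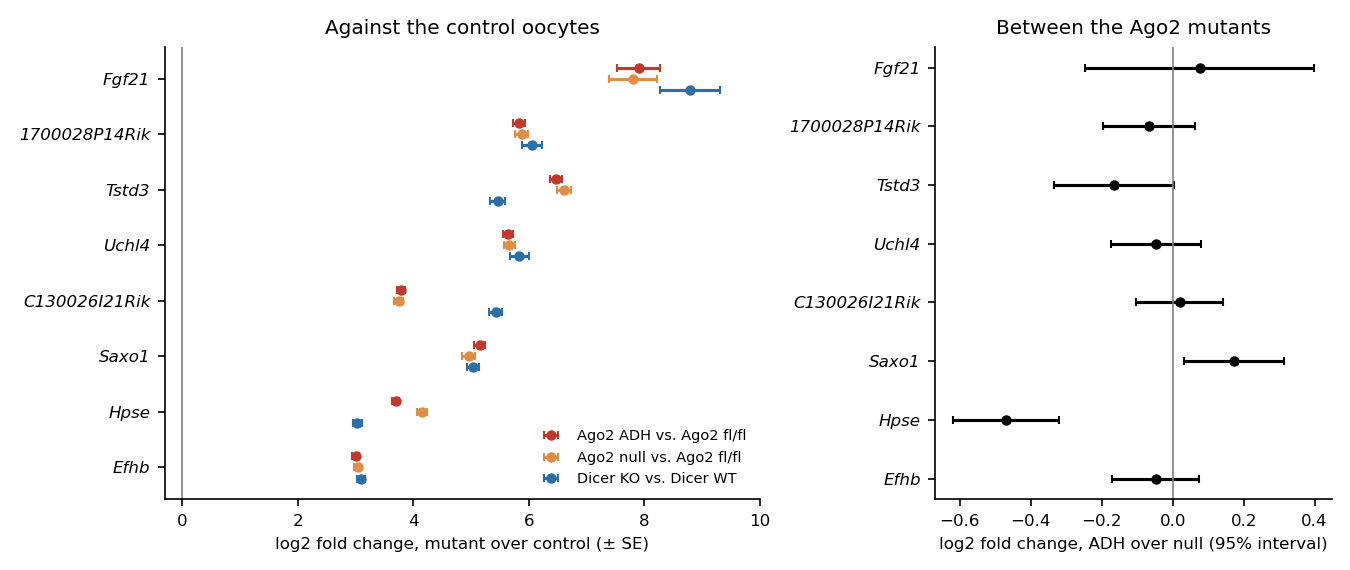
Log2 fold changes of the 8 genes. Left, each mutant over its control with the SE, for *Ago2* ADH (red), *Ago2* null (orange) and *Dicer* KO (blue); right, *Ago2* ADH over *Ago2* null with the 95% interval, where *Hpse* at -0.47 lies apart from the other 7, which lie between -0.17 and 0.17.

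Levels of different genes were compared per kilobase of transcript among 20241 genes with a known length. In *Ago2* fl/fl oocytes the mean level per kilobase of *Fgf21* exceeded that of 26.8% of genes, and those of the other 7 exceeded 49.9% (*Tstd3*) to 78.7% (*Efhb*). In *Ago2* ADH oocytes *Fgf21* exceeded 72.1% of genes, and the other 7 exceeded 95.1% (*Tstd3*) to 98.0% (*Uchl4*). In *Dicer* KO oocytes *C130026I21Rik* stood highest, above 99.4% of genes, and *Uchl4* above 99.1%, while *Hpse* exceeded 92.1%. In *Ago2* ADH oocytes the order by CPM per kilobase was *Uchl4* (141), *1700028P14Rik* (117), *Saxo1* (87.0), *Efhb* (84.3), *C130026I21Rik* (82.1), *Hpse* (70.9), *Tstd3* (62.0) and *Fgf21* (6.33). In this order *Efhb* differed from its neighbours *Saxo1* and *C130026I21Rik* by less than the spread between libraries, and the coefficients of variation were 4.21%, 4.36% and 1.37%.

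**Figure D3:**
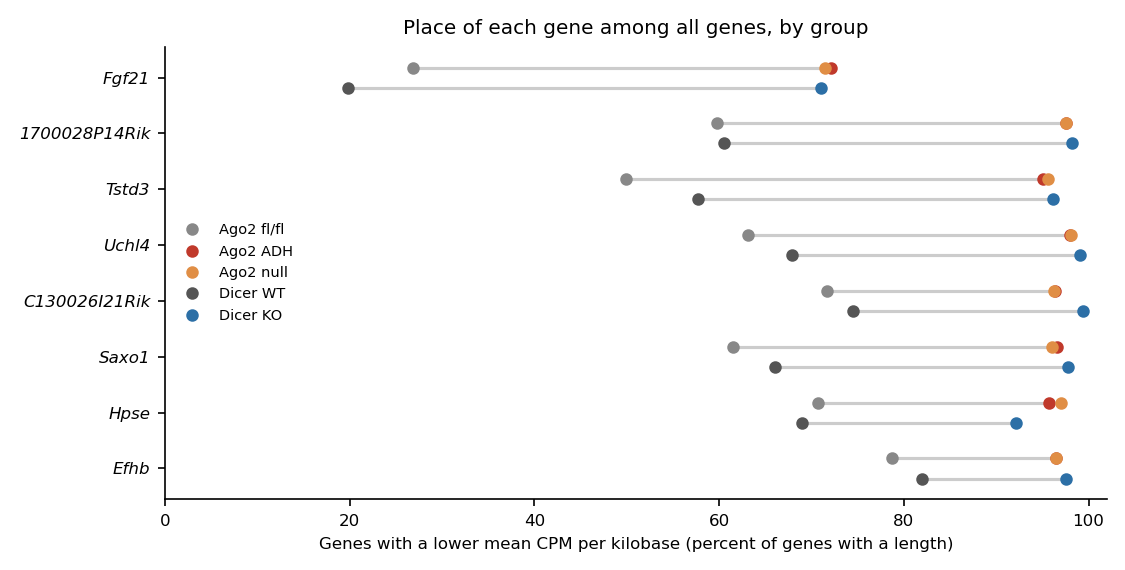
Share of genes with a lower mean level per kilobase than each of the 8 genes, in percent, for each group; grey lines join control and mutant. *Fgf21* moves from 26.8% to 72.1% in *Ago2* ADH oocytes, and the other 7 genes reach at least 92.1% in every mutant group.

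Ordered by the smallest of the 3 log2 fold changes among 11623 genes with a mean of at least 1 CPM, *Fgf21* ranked 2, *1700028P14Rik* 4, *Uchl4* 5, *Tstd3* 6 and *Saxo1* 7, whereas *C130026I21Rik* ranked 31, *Hpse* 62 and *Efhb* 64. The 5 highest other genes were *Olfr1173*, an odorant receptor gene, *Mt1*, a metallothionein gene, *Slc7a3*, a transporter of cationic amino acids, *Armcx3* and *Mcf2*. *Olfr1173* had 1081 counts in *Ago2* ADH oocytes and 1 in their controls together, and went from 0 to 696 counts in the *Dicer* series, at least 297-fold higher with a floor of 3 counts over the control group. *Mt1* went from 0.954 ± 0.188 to 139.9 ± 10.4 CPM (n = 3 each) in *Ago2* ADH oocytes. *Slc7a3* had 356 counts in *Ago2* ADH oocytes and 0 in the controls, at least 132-fold higher by the same floor.

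For each of the 8 genes, the gene outside the 8 whose log2(CPM + 1) was most alike over the 14 libraries was sought among 11661 genes. It was *Prom1* for *Fgf21* (Pearson's r = 0.997), *Zfp473* for *1700028P14Rik* (0.998), *Vav3* for *Tstd3* (0.998), *Eml6* for *Uchl4* (0.996), *Prc1* for *C130026I21Rik* (0.995), *Zfp930* for both *Saxo1* (0.997) and *Efhb* (0.998), and *Hps1* for *Hpse* (0.996). Some pairs within the 8 were more alike than this, with 0.9980 for *Saxo1* and *Efhb* and 0.9979 for *Uchl4* and *Efhb*. These coefficients are a description over libraries that share controls and fall into a low and a high cluster. *Prc1* had the smallest log2 fold changes of the genes found outside the 8, 1.14 for *Ago2* ADH and 1.64 for *Dicer* KO.

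Genes related to the 8 by pathway or family were counted in 7 lists. Of 113 list genes tested in *Ago2* ADH oocytes, 29 (25.7%) were called higher and 15 (13.3%) lower, beside 21.0% and 19.9% of all genes. In *Ago2* null oocytes 27 of 114 (23.7%) were higher and 17 (14.9%) lower, beside 18.6% and 18.7% of all genes. In *Dicer* KO oocytes 24 of 109 (22.0%) were higher and 17 (15.6%) lower, beside 16.9% and 17.6%. The same shares of all genes stand beside the counts of each list below. The number of lower calls moved with single libraries, to 10 for *Ago2* null without *Ago2* fl/fl replicate 2 or 3, 11 without *Ago2* null replicate 1, and 11 for *Dicer* KO without *Dicer* WT replicate 3 or *Dicer* KO replicate 3.

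Of the receptors and relatives of *Fgf21*, 1 of 5 tested genes rose and none fell in each comparison. This gene was *Kl*, which encodes alpha-Klotho, the coreceptor of FGF23. Its log2 fold change was 1.53 ± 0.18 for *Ago2* ADH, 1.51 ± 0.19 for *Ago2* null and 1.86 ± 0.22 for *Dicer* KO (SE), each with an edgeR adjusted p of at most 7.2e-06. *Klb*, which encodes beta-Klotho, had a mean of 0.594 CPM and log2 fold changes of -0.17, -0.73 and 1.44, and was not called. In the integrated stress response, the program in which ATF4 induces genes of amino acid supply and *Fgf21*, 9 of 19 tested genes rose and 4 fell in *Ago2* ADH oocytes, 10 of 20 rose and 3 fell in *Ago2* null oocytes, and 7 of 18 rose and 3 fell in *Dicer* KO oocytes. The median log2 fold changes of this list were 0.49, 0.49 and 0.30. *Asns*, asparagine synthetase, went from 1.99 ± 0.201 to 29.4 ± 1.97 CPM in *Ago2* ADH oocytes (n = 3 each; log2 3.93, edgeR adjusted p = 1.28e-15) and rose by 3.98 and 3.50 on the log2 scale in *Ago2* null and *Dicer* KO oocytes. *Psat1*, an enzyme of serine synthesis, rose by 3.33, 3.35 and 4.02, *Sesn2* by 1.53, 1.45 and 1.71, and the transcription factor gene *Atf5* by 1.34, 1.62 and 1.62. *Atf3* and *Ppp1r15b* of the same list fell in all 3 comparisons.

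Of the genes that build, modify or degrade heparan sulfate, the substrate of *Hpse*, 10 of 36 rose and 3 fell in *Ago2* ADH oocytes, 7 of 35 and 3 in *Ago2* null oocytes, and 6 of 33 and 4 in *Dicer* KO oocytes. *Hs3st3a1*, a heparan sulfate sulfotransferase, rose by 3.78, 3.89 and 4.17 on the log2 scale, and *Gpc5*, a glypican that carries the chains, by 3.62, 3.20 and 2.87. *Ids*, a lysosomal sulfatase, rose by 0.49, 0.53 and 1.01. *Extl3*, which starts the chains, fell by 0.79, 0.96 and 1.18.

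None of the 4 other ubiquitin C-terminal hydrolases was called in all 3 comparisons, and *Uchl1*, with the highest mean CPM of the list (703), had log2 fold changes of 0.01, 0.09 and -0.15 and was not called. Of the genes of sulfide metabolism and the rhodanese family, 2 of 11 rose and 2 fell in *Ago2* ADH oocytes. For *Ago2* null, 1 rose and 3 fell, and for *Dicer* KO, 3 rose and 1 fell. *Tstd2*, which like *Tstd3* encodes a rhodanese domain, rose by 2.20, 2.37 and 2.58 on the log2 scale, and *Cth*, an enzyme that makes cysteine and hydrogen sulfide, fell by 1.22, 1.27 and 0.71. Among axonemal and ciliary genes, the class of *Saxo1* and *Efhb*, fewer rose than fell in each comparison. In *Ago2* ADH oocytes 4 of 34 rose and 5 fell, in *Ago2* null oocytes 5 of 35 rose and 7 fell, and in *Dicer* KO oocytes 3 of 34 rose and 8 fell, with list medians of -0.01, -0.06 and -0.27. In this list 3 genes were called higher and 3 lower in all 3 comparisons. The 4 of them named by the rule, those with the largest smallest change, were *Tekt2* (log2 1.13, 1.06 and 1.89), *Dnah2* (0.99, 0.89 and 0.74), *Spag16* (0.58, 0.81 and 0.86) and *Nme5* (-0.96, -0.81 and -1.35).

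Of the 4 tested relatives of *C130026I21Rik* in the Sp100 family, 3 rose in each comparison, and the other, *Sp100*, had -0.78 in *Ago2* ADH oocytes (edgeR adjusted p = 0.0247) and fell by 1.23 and 1.49 on the log2 scale in the other mutants. *Sp110* was at 480 CPM in *Ago2* fl/fl and 2941 in *Ago2* ADH oocytes and rose by 2.66, 2.59 and 3.02 on the log2 scale. *Sp140* rose by 1.98, 1.85 and 2.84, and *A530032D15Rik* by 1.51, 1.63 and 2.93. These last genes share sequence with *C130026I21Rik*, as given above, and like it had larger values in *Dicer* KO than in *Ago2* ADH oocytes, a difference that was not tested.

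**Figure D4:**
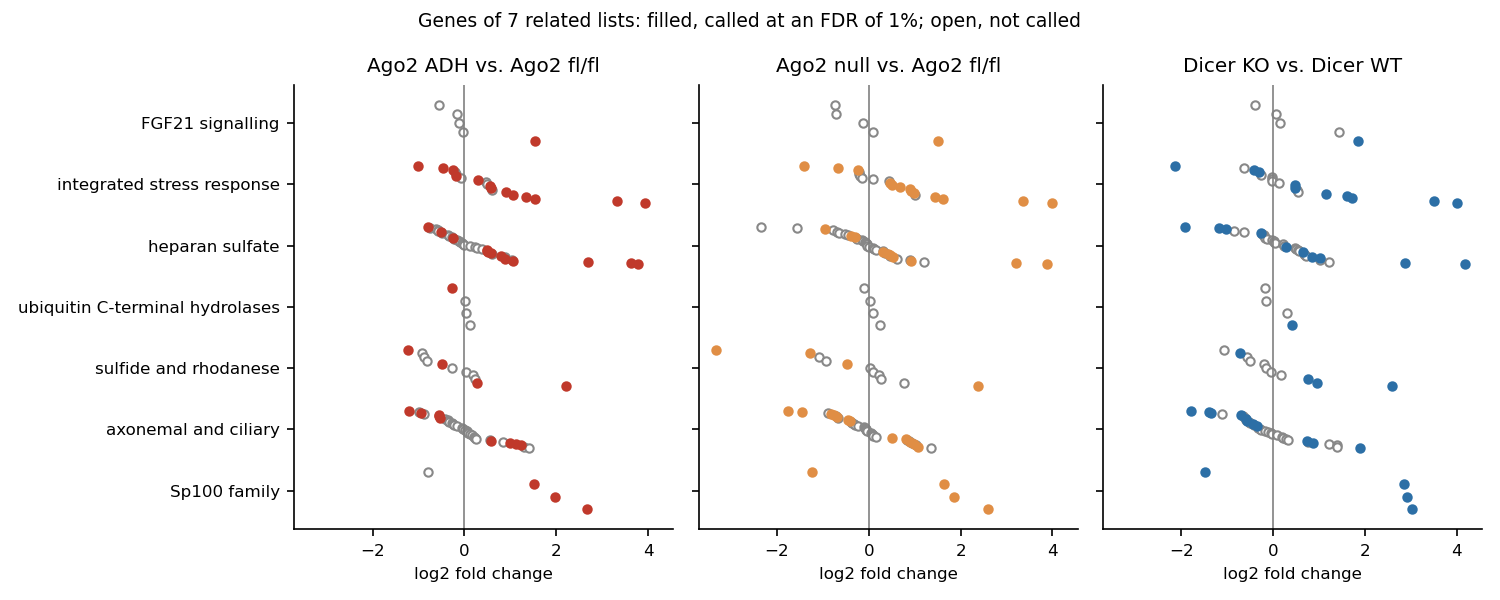
Log2 fold change of each tested gene of the 7 lists in the 3 comparisons; filled circles were called at an FDR of 1% and open circles were not. Of the Sp100 family 3 of 4 genes lie to the right of 0 and *Sp100* to the left, part of the integrated stress response list lies to the right, and the axonemal and ciliary genes spread to both sides of 0, with list medians of -0.01, -0.06 and -0.27.

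The genes that overlap the 8 or lie next to them were compared to see whether whole regions moved. Of 18 neighbours tested in *Ago2* ADH oocytes, 3 rose and 8 fell (median log2 fold change -0.26), of 17 in *Ago2* null oocytes 3 rose and 6 fell (-0.14), and of 17 in *Dicer* KO oocytes 2 rose and 6 fell (-0.12), beside 21.0%, 18.6% and 16.9% of all genes called higher and 19.9%, 18.7% and 17.6% called lower. More neighbours fell than rose in each comparison. *Uchl4* lies inside *Map2k1*, a kinase gene on the opposite strand, which rose by 0.45, 0.46 and 0.61 on the log2 scale. *Ccnc*, which overlaps *Tstd3*, was not called (0.09, 0.07 and 0.00), and *Usp45*, which overlaps its other end, fell by 0.42, 0.32 and 0.37. *Adamtsl1*, 16034 bases from *Saxo1*, fell by 0.91, 1.06 and 1.09, and *Rraga* on the other side by 0.30, 0.36 and 0.27. *Coq2*, 5195 bases from *Hpse*, fell in *Ago2* ADH (by 0.51) and *Dicer* KO oocytes (by 1.03) and had -0.33 in *Ago2* null oocytes (adjusted p = 0.0418, edgeR).

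*Snapc5*, beside *Uchl4*, fell by 0.65, 0.75 and 0.98, and *Pnisr*, beside *Tstd3*, by 0.38, 0.49 and 0.32. *Prdm13*, on the other side of *Tstd3*, fell by 1.33 and 1.52 in the *Ago2* mutants and had -0.94 in *Dicer* KO oocytes (adjusted p = 0.0539, edgeR). *Tipin*, beside *Uchl4*, fell by 0.23 in *Ago2* ADH oocytes and was not called in the others, and *Rab5a*, beside *Efhb*, rose by 0.51 in *Ago2* null oocytes, with 0.11 and -0.12 in the others. *Sp110*, 287851 bases from *C130026I21Rik*, was the neighbour that rose most among those with control counts. *Fut1*, 2115 bases from *Fgf21*, had 66 counts in the *Ago2* ADH libraries together and 0 in their controls, at least 24.5-fold higher with a floor of 3 counts over the control group, and was called in that comparison and not tested in the others. *Bcat2*, *Mamdc2*, *Ptar1*, *Gm7609* and *Helq* were not called in any comparison, and *Kcnh8* was too low to be tested.

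**Figure D5:**
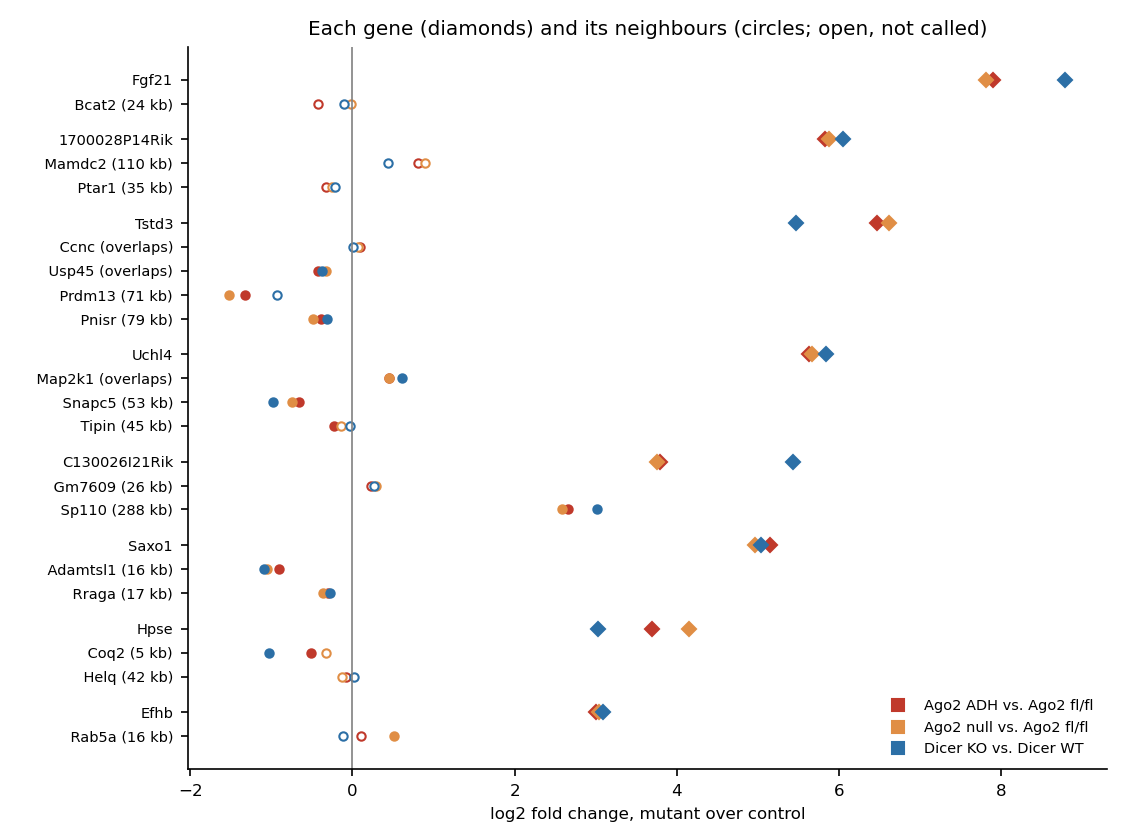
Log2 fold change, mutant over control, of each of the 8 genes (diamonds) and of its neighbours (circles, open where not called), with the distance in kilobases; *Fut1* and *Kcnh8* are left out, as their *Ago2* fl/fl counts were 0. The 8 genes lie between 3.01 and 8.79, and of the neighbours drawn only *Sp110* lies above 1.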

How the data were processed

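RNA-seq counts of GV-intact oocytes of the *Ago2* and *Dicer* genotypes were used, with groups and replicate numbers from the sample titles. The values deposited by the authors are raw read counts per RefSeq transcript. To make them, the authors amplified cDNA from lysed oocytes, aligned paired reads of different lengths, with different settings, to mm10 (GRCm38) with TopHat (at most 100 alignments kept), and then used HTSeq 0.6.1 for counting without regard to strand. Which libraries had which read length is not given in the sources used here. The submitters' notes also name TopHat2 2.0.7.

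Of 26495 transcripts, 26077 were matched to RefSeq symbols, 117 to GENCODE M21 and 301 to none. Each comparison was fitted on its own groups with edgeR 4.0.16 (R 4.3.3): filterByExpr (minimum count 10, minimum total 15), TMM, the quasi-likelihood test and Benjamini-Hochberg adjustment over all transcripts, with calls at an FDR of 1%. The SE is that of the fitted log2 fold change. CPM are scaled by TMM over all 14 libraries. The code was tested on simulated data. Alternatives were DESeq2 1.42.0, RLE factors, no filter, 1 transcript per gene, all groups in a joint fit, a replicate block, an FDR of 5% and each library left out.

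The 8 genes and the lists were chosen with earlier results of these data known. Named beside the 8 genes were, for each list, up to 4 genes called the same way in all 3 comparisons with the largest smallest change (or else the 2 most abundant tested), all neighbours, the most alike gene, the 5 next genes by smallest change, and *Ago2* and *Dicer1*. *Klb*, *Atf3*, *Ppp1r15b*, *Sp100* and the cumulus markers were named after their values were seen. Amplified reads carry no molecular identifiers, so intervals and floors cover counting error only.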

Additional observations from a re-analysis of the deposited data

Results flagged for a closer look

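Of the 8 genes, *Hpse* differed between the *Ago2* mutants, with a log2 fold change of -0.47 in *Ago2* ADH vs. *Ago2* null oocytes. *Uchl3*, the gene that *Uchl4* copies, had every mutant library on opposite sides of its controls in the *Ago2* ADH and *Dicer* series, with log2 fold changes of -0.28 and 0.41, and the difference between the series was not tested. The tally of alignments that were not unique enters no count. It averaged 1.61 per count in *Ago2* ADH and 1.61 in *Ago2* null libraries, above 0.572 in *Ago2* fl/fl libraries. It averaged 1.03 in *Dicer* KO libraries, above 0.458 in *Dicer* WT libraries. Groups of 2 or 3 libraries are too small for a test of single outlying libraries.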

How the results depend on the processing

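All 280 alternative values of the log2 fold changes of the 8 genes against their controls stayed above 0, from 2.95 to 10.49, and 274 moved by less than the SD between replicates. The other 6 were of *Fgf21*, whose controls had 4 counts and 1 count in all. *Hpse* stayed the only 1 of the 8 genes called between *Ago2* ADH and *Ago2* null oocytes under each alternative that kept all libraries, and the number called ranged from 0 to 1 with a library left out. Across all transcripts this comparison had 13 higher and 10 lower calls, 48 and 33 with DESeq2, 59 and 35 without the filter, and 84 and 58 with the replicate block. With the replicate block the list genes called numbered 45, 36 and 36 in *Ago2* ADH, *Ago2* null and *Dicer* KO oocytes, against 44, 44 and 41, the neighbours 11, 8 and 8, against 11, 9 and 8, and the members called between the *Ago2* mutants 1. Deviations of same-numbered libraries had correlations of -0.09 to 0.04. With so few libraries per group this cannot show whether same-numbered libraries share a collection. No total of list genes or neighbours called, nor of neighbours called in either direction, moved by over 1.5 times under the alternatives tried, but list genes called lower did. In *Ago2* ADH oocytes they went from 15 to 24 at an FDR of 5%. In *Ago2* null oocytes they went from 17 to 27 at an FDR of 5%, to 10 without *Ago2* fl/fl replicate 2 or 3 and to 11 without *Ago2* null replicate 1. In *Dicer* KO oocytes they went from 17 to 11 without *Dicer* WT replicate 3 or *Dicer* KO replicate 3. Depth limits *Fgf21* in the controls, at or under the floor of 3 counts per library.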
